A study of Rattus norvegicus with 6 samples.

Results

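The miRNAs described here are those of the large maternally expressed cluster of the imprinted Dlk1-Dio3 locus, from miR-379 at its start to miR-410 at its end, which is transcribed as the noncoding RNA Mirg. Members were taken by hairpin number, with any arm and any letter suffix. Of the 562 mature miRNAs listed for each library, 61 were members. They came from 32 hairpins, 29 of them as 5p products, 30 as 3p products and 2 (miR-495 and miR-668) without an arm in the name. miR-544, miR-654 and miR-679, also named by the rule, had no row, and of miR-758 only the 3p product was listed. All 61 matched a RefSeq miRNA gene on chromosome 6 of assembly GRCr8, 59 on the plus strand and 2, both products of Mir299b, on the minus strand. The deposited values were made on rn6, so the RefSeq table was used for names, sequences and the order of hairpins only.

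The study sequenced miRNAs of the hypothalamic arcuate nucleus (ARC) of Sprague-Dawley rats aged 8 to 10 weeks, 14 days after surgery on the left infraorbital nerve, a sensory branch of the trigeminal nerve. In 3 libraries the rats had a loose ligation of the nerve (CCI-ION, a model of trigeminal neuropathic pain), and in 3 the nerve was exposed without ligation (sham). Rats were male unless stated otherwise per the study's methods, and the study gives more rats than libraries per group for this experiment. Whether rats were pooled is not given in the sources used here, so n counts libraries and the spread between them may be technical in part. Each value is a normalized count. From the values themselves these appear to be reads of a mature miRNA scaled by a size factor of the library, and every number of reads given here rests on that inference. Values by library are given in the order of replicates 1, 2 and 3. The libraries held 8628309 to 14313839 reads, with sham replicates 2 and 3 the deepest and CCI-ION replicates 2 and 3 the shallowest, and no value above 0 was worth fewer than 5 reads. In tissue RNA, fewer cells of a type and less RNA per cell cannot be told apart.

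Imprinted genes are expressed from the copy of 1 parent, and at this locus the noncoding RNAs and their miRNAs come from the maternal chromosome. A hairpin is cut from its long transcript by Drosha and Dicer into a 5p and a 3p product. Usually the more abundant of them is loaded into Argonaute and pairs with target mRNAs through its seed. The cluster is expressed mainly in the brain after birth and is known to be induced by neuronal activity through the transcription factor Mef2, and its best studied product, miR-134-5p, represses Limk1 and Pum2 in dendrites.

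The sequences are those of RefSeq, printed 5′ to 3′ in lower case with the seed, bases 2 to 8, in capitals. The first set shows both arms of the 5 hairpins on which the comparisons below turn, miR-134, miR-369, miR-487b, miR-496 and miR-543.
miR-134-5p: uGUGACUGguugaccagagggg
miR-134-3p: cUGUGGGCcaccuagucaccaa
miR-369-5p: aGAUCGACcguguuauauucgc
miR-369-3p: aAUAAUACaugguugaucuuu
miR-487b-5p: aGUGGUUAucccuguccucuucg
miR-487b-3p: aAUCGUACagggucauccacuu
miR-496-5p: aGGUUGUCcaugguguguuc
miR-496-3p: aGUAUUACauggccaaucucc
miR-543-5p: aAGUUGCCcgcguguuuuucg
miR-543-3p: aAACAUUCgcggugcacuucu

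The second set shows members that share a seed or most of their sequence. The 61 members had 55 distinct seeds, and 5 seeds were shared by 11 members. miR-381-3p and miR-539-3p shared AUACAAG, the 3p products of miR-299a and miR-299b shared AUGUGGG and their 5p products GGUUUAC, miR-376b-5p and miR-376c-5p shared UGGAUAU, and miR-410-5p, miR-494-5p and miR-496-5p shared GGUUGUC.
miR-381-3p: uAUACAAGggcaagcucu
miR-539-3p: cAUACAAGgguaauuucuuuuc
miR-300-3p: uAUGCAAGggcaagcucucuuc
miR-299a-3p: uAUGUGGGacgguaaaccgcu
miR-299b-3p: uAUGUGGGacgguaaac
miR-299a-5p: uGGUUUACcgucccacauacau
miR-299b-5p: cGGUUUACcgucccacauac
miR-376b-5p: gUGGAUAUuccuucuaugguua
miR-376c-5p: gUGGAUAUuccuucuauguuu
miR-410-5p: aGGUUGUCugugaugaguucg
miR-494-5p: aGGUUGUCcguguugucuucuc

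Some of these are close enough that the counting could have divided reads between them, and their single values are uncertain. Positions are counted from 1 at the 5′ end, and the first-named miRNA's base stands first. Over 18 bases, miR-300-3p and miR-381-3p differed only by G4A, which lies in the seed. The 17 bases of miR-299b-3p were the first 17 of miR-299a-3p, miR-299a-5p and miR-299b-5p differed by U1C over 20 bases, and miR-376b-5p and miR-376c-5p by G19U over 21 bases. Mir299b lies opposite Mir299 on the other strand, and whether the counting used the strand is not given in the sources used here.

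The third set shows what many members share outside the seed. These letters were searched after the sequences had been seen, on the mature strand only, and a match is a description of the letters. Of the 30 3p members, 12 had GGU starting at base 11 or 12, or 40%, against 1.96% of the 204 other 3p miRNAs listed with a sequence. The longer GGUCCAC was in 5 members (16.7%) and in 0 of those 204. Of the 29 5p members, 14 held GGUNNNCC (48.3%), against 2.04% of 196 other 5p miRNAs, and its special case GGUUGNCC was in 6 (20.7%) and in 0 of the 196. The 5 products with GGUCCAC were the following.
miR-379-3p: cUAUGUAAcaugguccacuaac
miR-380-3p: uAUGUAGUaugguccacaucu
miR-411-3p: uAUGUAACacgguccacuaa
miR-412-3p: cUUCACCUgguccacuagccgu
miR-758-3p: uUUGUGACcugguccacuaacc

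Between groups these 5 had log2 differences (CCI-ION minus sham) from -0.33 for miR-380-3p to -0.04 for miR-758-3p, and the groups overlapped for each of them.

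The cluster was well represented in the ARC. All 61 members passed the filter of a mean of at least 1 normalized count over the 6 libraries, 56 were above 0 in every library, and the means ran from 3.25 for miR-299b-5p to 56279.7 for miR-543-3p, with a median of 1016. Levels were unequal within the cluster. miR-543-3p alone held 16.7% of the cluster's summed normalized count and the 10 most abundant members held 74.1%. The 5 members with a 0 in at least 1 library were miR-299b-5p, miR-376a-3p, miR-381-5p, miR-494-5p and miR-496-5p, all of them the less abundant arm of their hairpin.

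The cluster as a whole overlapped between groups. Its summed normalized count reached 333010, 350793 and 365021 in the sham libraries, against 346080, 323723 and 297439 in the CCI-ION libraries. The means were 349608 ± 16038 and 322414 ± 24347 (SD, n = 3 each), a CCI-ION to sham ratio of 0.922 that became 1.06 when the libraries were scaled to their totals. CCI-ION replicate 1 lay inside the sham range and the other two CCI-ION libraries below it. As a share of all reads the cluster took 2.92% ± 0.257 of sham and 3.09% ± 0.205 of CCI-ION libraries (SD, n = 3 each). The most abundant miRNA of the tissue, miR-7a-5p, took 20.1% and 11.4% of the reads in these groups. With it left out of the total, the cluster's shares were 3.64% ± 0.152 and 3.48% ± 0.254, and they also overlapped.

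**Figure D1:**
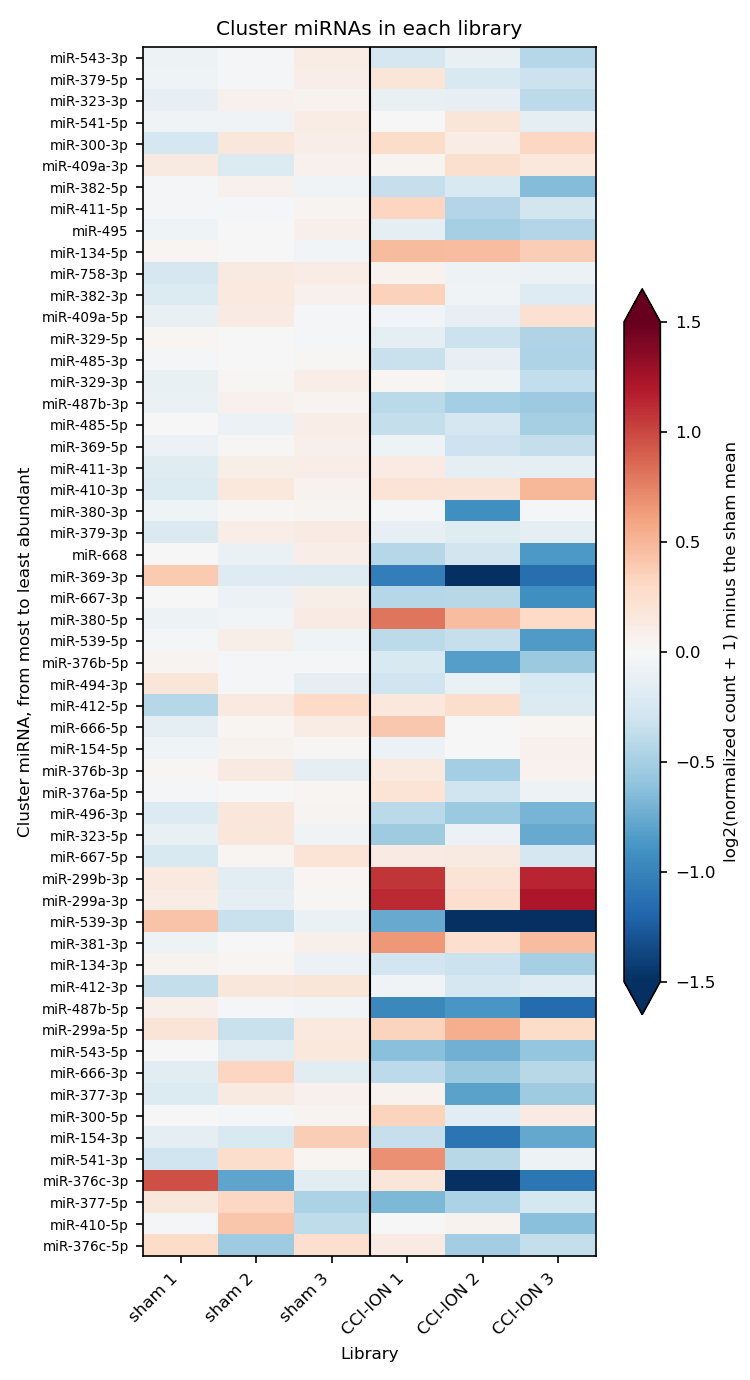
Heat map of log2(normalized count + 1) minus the sham mean in each of the 6 libraries (columns) for the 56 cluster miRNAs with a mean of at least 10 (rows, most abundant at the top), with red above and blue below the sham mean and the colour scale ending at 1.5 in either direction. CCI-ION replicates 2 and 3 hold most of the blue, and miR-134-5p is red in all 3 CCI-ION libraries.

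Differences in log2(normalized count + 1) were tested with limma, in two-sided tests adjusted by Benjamini-Hochberg over the 555 miRNAs tested and a threshold of 0.05. Of the 61 members, 4 passed, all lower in CCI-ION rats, which is 6.56%, close to the 6.85% of all miRNAs tested (3.42% lower and 3.42% higher). The 4 were miR-369-3p, miR-487b-5p, miR-496-5p and miR-543-5p. The count moved with that over the whole table, where 38 of 555 miRNAs passed. It was 1 without sham replicate 1, 2 or 3, where 9, 11 and 7 miRNAs passed in all, and 2 without CCI-ION replicate 3, where 10 did. Without CCI-ION replicate 2 it was 4 (2 lower and 2 higher) of 42 miRNAs in all. With upper-quartile scaling it was 14, all lower, of 88 miRNAs in all, 79 of them lower, and with scaling to library totals 4 (3 lower and 1 higher) of 51 in all, 9 of them lower. Before adjustment, 23 members had a p under 0.05 (37.7% against 33% of all miRNAs), 18 of them lower (17.5% of all miRNAs) and 5 higher (15.5% of all miRNAs). The groups did not overlap for 27 members (44.3% against 40.7%), with CCI-ION lower in 20 (21.3% of all miRNAs) and higher in 7 (19.5% of all miRNAs). Both the 5 and the 7 higher members include miR-299a-3p and miR-299b-3p, which cannot be counted as separate measurements, as given below.

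Most members had a small difference on the lower side in CCI-ION rats. The log2 difference was below 0 for 43 members (70.5%, against 51.2% of all miRNAs tested) and above 0 for 18, and its median was -0.21 against -0.01. It was smaller than 0.5 in size for 42 members (68.9% against 60.7%). Scaling moved the median of all miRNAs, to 0.17 with library totals and to -0.27 with upper-quartile factors. With library totals 32 of the 61 members were below 0, against 36.8% of all miRNAs. With upper-quartile factors 53 of the 61 were, against 67.7% of all miRNAs. Relative to the median of all miRNAs, that of the members was -0.20 as deposited, -0.18 with library totals, -0.20 with upper-quartile factors and -0.18 with totals that left out miR-7a-5p. The 59 members on the plus strand come from 1 transcript, while the 2 products of Mir299b lie on the other strand. All members were measured in the same libraries, so they are not independent of each other.

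The libraries did not contribute equally to this. Among the 56 members with a mean of at least 10, CCI-ION replicate 3 was the lowest of all 6 libraries for 21 and CCI-ION replicate 2 for 15. CCI-ION replicate 1 was the lowest for 3, and the sham libraries for 11, 5 and 1. The median deviation of these members from their mean over the 6 libraries, on the log2 scale, was 0.05, 0.14 and 0.15 in the sham libraries. It was 0.04, -0.13 and -0.23 in the CCI-ION libraries. CCI-ION replicate 1 and sham replicate 1 thus had nearly the same value, and CCI-ION replicates 2 and 3 lay further below the sham libraries. Depth differed in a similar order, with 11115049, 13611671 and 14313839 reads in the sham and 11297551, 8628309 and 9586078 in the CCI-ION libraries. Depth and group cannot be told apart here, and the part of depth was not tested. Over all 61 members, the median log2 difference was -0.15 without CCI-ION replicate 3 and -0.29 without CCI-ION replicate 1. The coefficient of variation of members with a mean of at least 10 had a median of 8.51% in sham and 14.2% in CCI-ION libraries, against 10.5% and 15.5% over all such miRNAs.

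miR-369-3p showed the largest fall among the members that passed with reads in every library. This product is known to bind the AU-rich element of the TNF mRNA. It was at 3115, 2069 and 2079 normalized counts in the sham libraries and at 1157, 826 and 1088 in the CCI-ION libraries, so that every CCI-ION library lay below every sham library. The means were 2421 ± 601 and 1023 ± 175 (SD, n = 3 each) and the log2 difference was -1.23 (SE 0.23, adjusted p = 0.0435 from limma). With any 1 of the 6 libraries left out the difference was -1.33 to -1.03 and the adjusted p 0.0570 to 0.127. The 5p product of the hairpin, miR-369-5p, was at 4793, 5159 and 5357 in sham and 4834, 4108 and 3974 in CCI-ION libraries. Here the groups overlapped, with a log2 difference of -0.25 (SE 0.13, adjusted p = 0.216 from limma).

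miR-487b-5p, the rare arm of its hairpin, was at a lower level in each CCI-ION library than in any sham library. Its normalized counts were 133, 124 and 122 in sham and 64.2, 68.2 and 56.0 in CCI-ION libraries, and the groups lay far apart relative to their spread, with means of 126 ± 5.56 and 62.8 ± 6.23 (SD, n = 3 each). The log2 difference was -1.0 (SE 0.12, adjusted p = 0.0190 from limma). It passed without any 1 CCI-ION library, but the adjusted p was 0.0690, 0.0757 and 0.0682 without sham replicates 1, 2 and 3. The abundant arm, miR-487b-3p, known from work on vascular remodelling, was at 5533, 6236 and 6101 in sham and 4513, 4169 and 4076 in CCI-ION libraries. These groups did not overlap either, and the log2 difference of -0.49 (SE 0.11) had an adjusted p of 0.0597 from limma.

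miR-543-5p passed with the smallest difference of the 4. It was at 81.1, 72.3 and 90.2 normalized counts in sham and at 52.1, 48.7 and 53.8 in CCI-ION libraries, without overlap, and at 40 reads or more in each library. The means were 81.2 ± 8.93 and 51.5 ± 2.60 (SD, n = 3 each), and the log2 difference was -0.64 (SE 0.13, adjusted p = 0.0450 from limma). Left without any 1 library the difference was -0.72 to -0.56 and the adjusted p 0.0665 to 0.139, and scaling to library totals gave 0.0778. Its partner miR-543-3p, the most abundant member, was at 57890, 59858 and 66186 in sham and 51584, 56481 and 45679 in CCI-ION libraries. Every CCI-ION library was below every sham library, with a log2 difference of -0.26 (SE 0.13, adjusted p = 0.212 from limma).

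miR-496-5p was listed at 12.6, 10.8 and 6.74 normalized counts in the sham libraries, or 11, 13 and 8 reads, and at 0 in all 3 CCI-ION libraries. It passed the filter through its sham values. Since values under 5 reads were not listed above 0, no fold is given: the fitted difference of -3.43 (adjusted p = 0.00172 from limma) depends on the value taken for 0 and ran from -6.62 to -1.55 over the alternatives tried. At 13 reads or fewer in each library, this member cannot be weighed like the other 3 that passed. The abundant partner miR-496-3p was at 661, 856 and 786 in sham and at 576, 519.9 and 469 in CCI-ION libraries. Again the groups did not overlap, and the log2 difference was -0.55 (SE 0.15, adjusted p = 0.0828 from limma).

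**Figure D2:**
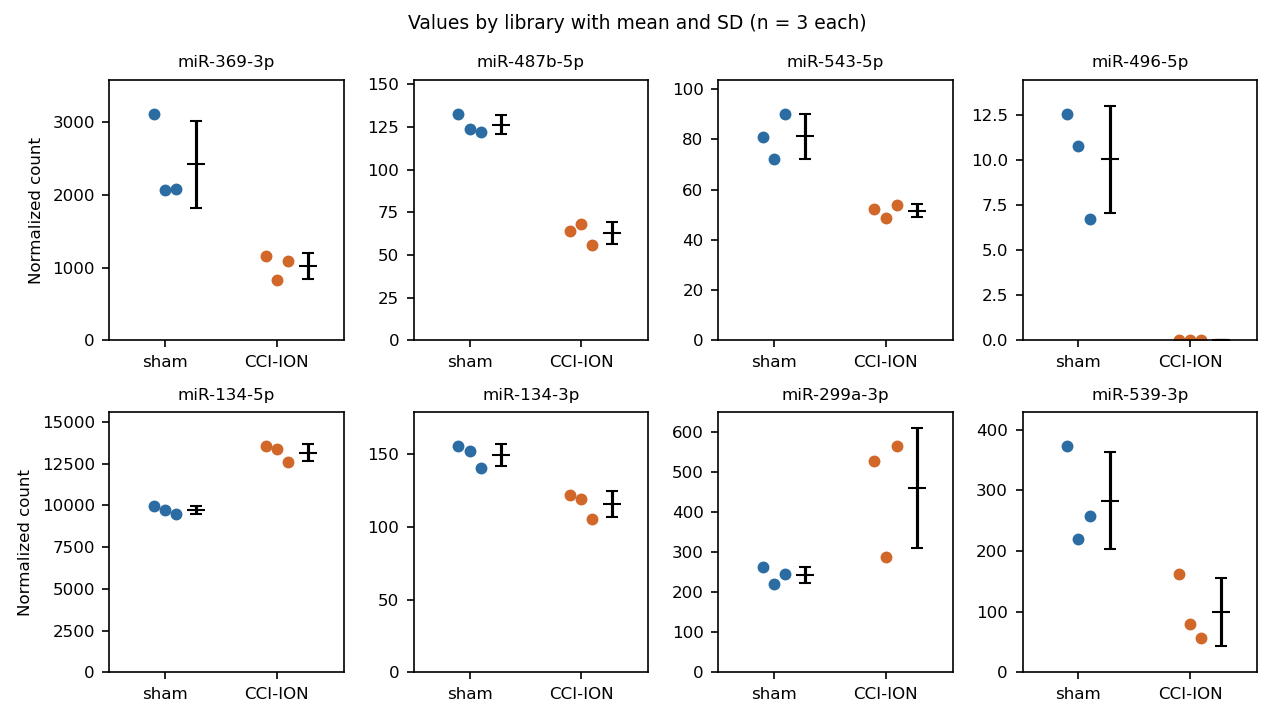
Normalized counts of 8 cluster miRNAs in the 3 sham (blue) and 3 CCI-ION (orange) libraries, with the group mean and SD (n = 3) in black and every axis starting at 0. The upper row shows the 4 members that passed the threshold, without overlap between groups. The lower row shows both arms of miR-134, which differ in opposite directions, and miR-299a-3p and miR-539-3p.

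The members that passed, miR-496-5p and the 3 with reads in every library, were all the minor arm of their hairpin, the arm with the lower mean over the 6 libraries. Of the 29 minor arms in the cluster 4 passed in limma and of the 29 major arms 0, with 9 minor and 7 major arms lower, and 1 and 4 higher, at an unadjusted p under 0.05. Among all 190 hairpins with both arms tested, 16 minor arms passed (10 lower and 6 higher) and 13 major arms (4 lower and 9 higher). At an unadjusted p under 0.05 in limma, 34 of these 190 minor arms were lower and 23 higher. Of the 190 major arms, 32 were lower and 35 higher. The median log2 difference was -0.25 over minor and -0.21 over major arms of the cluster, against -0.08 and 0.04 over all hairpins. By side of the hairpin, the 5p products had a median of -0.19 and the 3p products of -0.21. Whether minor and major arms of the cluster differ in how often they pass was not tested.

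As deposited, the medians were below 0 in every class of abundance. The 10 members with a mean of at least 10000 had a median log2 difference of -0.13, the 21 between 1000 and 10000 one of -0.25, the 13 between 100 and 1000 one of -0.05, the 12 between 10 and 100 one of -0.44 and the 5 under 10 one of -0.82. Over all miRNAs tested the medians of these classes were -0.05, 0.03, 0.01, -0.01 and -0.82. The class of the rarest miRNAs thus had the same median in the cluster as in the whole table, where values of 0 enter. Of the 4 members that passed, 1 was in the class from 1000 to 10000 (miR-369-3p), 2 in the class from 10 to 100 and 1 under 10. Over all miRNAs tested, 4 lower and 9 higher of 145 passed from 1000 to 10000. From 10 to 100 these were 5 and 4 of 125, and under 10 they were 2 and 0 of 66. From 100 to 1000 they were 5 and 2 of 141, and at 10000 or more 3 and 4 of 78.

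**Figure D3:**
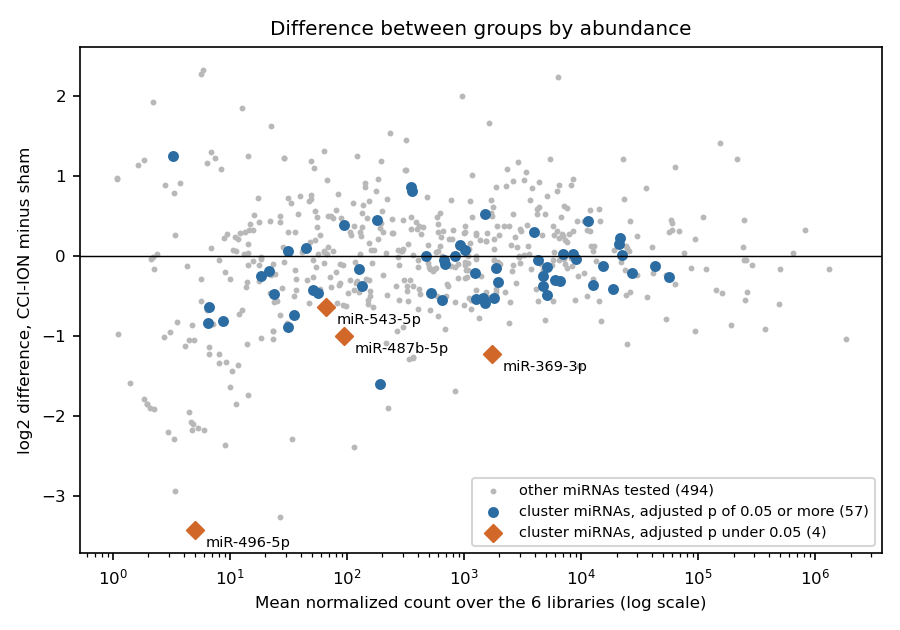
Log2 difference (CCI-ION minus sham, vertical axis) against the mean normalized count over the 6 libraries (horizontal axis, log scale) for the 61 cluster miRNAs in colour and the other miRNAs tested in grey, one point per miRNA. Most cluster miRNAs lie between -0.5 and 0.5, and the 4 that passed the threshold (diamonds) all lie below 0.

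The 10 most abundant members differed little between groups. Their log2 differences ran from -0.41 to 0.44, 6 of them below 0, and the lowest adjusted p was 0.0597 from limma. The groups overlapped for 6, and without overlap CCI-ION was lower for 3 and higher for 1. Of all 78 miRNAs tested with a mean of at least 10000, 40 were below 0. Among these 78, CCI-ION was lower without overlap for 23 and higher for 21. miR-379-5p, the first product of the transcript, was at 41942, 43170.4 and 47024 normalized counts in sham and at 49723, 37616 and 35152 in CCI-ION libraries. CCI-ION replicate 1 was thus the highest and the other two CCI-ION libraries the lowest of the 6 (log2 difference -0.12, 95% interval -0.54 to 0.29). Its neighbour miR-411-5p had the same order of libraries, with 15600.2, 15561 and 16200.2 in sham and 19804, 11649 and 13038 in CCI-ION libraries. The log2 difference was -0.13 (interval -0.67 to 0.42), and for both miRNAs it was above 0 with scaling to library totals.

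miR-323-3p was at 26891, 30633 and 30198 normalized counts in sham and 26937, 26905 and 22283 in CCI-ION libraries, with overlap (log2 difference -0.21, interval -0.54 to 0.12). miR-541-5p, at 21369, 21509.6 and 23936 in sham and 22279.8, 25302 and 20284 in CCI-ION libraries, had the smallest difference of the 10 (0.02, interval -0.31 to 0.34). These intervals reach past 0 on both sides, so the direction of neither difference was resolved with 3 libraries per group.

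miR-300-3p and miR-409a-3p were on the higher side in CCI-ION rats. miR-300-3p was at 16359, 22047 and 20970.0 in sham and 23717, 21132 and 24331 in CCI-ION libraries (log2 difference 0.23, interval -0.16 to 0.62). miR-409a-3p was at 21879, 17296 and 20925 in sham and 20526, 23563 and 22298 in CCI-ION libraries (0.15, interval -0.19 to 0.49). Both overlapped between groups, and both differences were below 0 with upper-quartile scaling.

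miR-382-5p and miR-495, by contrast, were lower in every CCI-ION library without passing the threshold. miR-382-5p was at 21067, 22439.9 and 20684 in sham and 16829, 18209 and 13659.9 in CCI-ION libraries (log2 difference -0.41, SE 0.14, adjusted p = 0.124 from limma). miR-495, which is known to target Bdnf, was at 13362, 13910.4 and 14778 in sham and 12747, 9884 and 10335 in CCI-ION libraries (-0.36, SE 0.14, adjusted p = 0.144 from limma). For both, the gap between the groups was smaller than the range inside the CCI-ION group.

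miR-134-5p went the other way. It was at 9951, 9730.1 and 9481 normalized counts in sham and at 13549.7, 13354 and 12574 in CCI-ION libraries, so every CCI-ION library was above every sham library and the spread within each group was small (9721 ± 235 and 13159 ± 516, SD, n = 3 each). The log2 difference of 0.44 (SE 0.10, interval 0.19 to 0.69) had an adjusted p of 0.0597 from limma and did not pass. It stayed above 0 with each scaling, from 0.18 with upper-quartile factors to 0.64 with library totals. The minor arm, miR-134-3p, was at 155, 152 and 141 in sham and 122, 119 and 105 in CCI-ION libraries. It was lower in every CCI-ION library, with a log2 difference of -0.37 (SE 0.11, adjusted p = 0.104 from limma).

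The ratio of the 5p to the 3p product compares the arms of 1 hairpin within a library, so the scaling of libraries hardly enters it. In miR-134 it rose, from 63.6, 63.5 and 66.9 in the sham to 110.3, 111 and 118 in the CCI-ION libraries, after 1 normalized count was added to each arm. The groups were far apart compared with their spread. The log2 ratio was 6.01 ± 0.04 in sham and 6.82 ± 0.05 in CCI-ION libraries (SD, n = 3 each), a difference of 0.81 (SE 0.11, adjusted p = 0.0151 from limma over the 190 hairpins with both arms). It was 0.80 to 0.81 with the other scalings. The adjusted p was 0.0751, 0.0794 and 0.0891 without sham replicates 1, 2 and 3, with differences of 0.79, 0.79 and 0.83, and between 0.0220 and 0.0439 without a CCI-ION library.

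Of the 29 cluster hairpins with both arms, 2 passed for the ratio, miR-134 and miR-496, or 6.90% against 10.5% of all hairpins. The ratio of miR-496 fell, with a log2 difference of -2.87 (adjusted p = 0.00741 from limma), but its 5p product is listed at 0 in all CCI-ION libraries. With each 0 taken as 2.5 reads the difference was -0.995 and the adjusted p 0.0838, so this call rests on the value taken for 0. At an unadjusted p under 0.05 were 10 hairpins (34.5% against 32.6%), 7 with a higher and 3 with a lower ratio in CCI-ION rats, and the groups did not overlap for 10 (34.5% against 40.5%). The nearest hairpins that missed the threshold were miR-667 (log2 difference 0.60, SE 0.15) and miR-369 (0.98, SE 0.26).

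Most hairpins kept their major arm. Of the 29 hairpins, 13 had more of the 5p and 16 more of the 3p product on average, and 27 kept the same major arm in all 6 libraries. The exceptions were miR-376c and miR-380. In miR-380 the ratio of the 5p to the 3p product was 0.569, 0.554 and 0.611 in the sham and 1.03, 1.51 and 0.725 in the CCI-ION libraries, without overlap (log2 difference 0.85, SE 0.29, adjusted p = 0.125 from limma). In miR-376c it was 0.354 to 0.764 in sham and 0.546 to 1.34 in CCI-ION libraries, with overlap. In the hairpins of the most abundant members other than miR-134, the log2 difference of the ratio was -0.44 for miR-382, -0.38 for miR-543, -0.25 for miR-323, -0.13 for miR-300, -0.13 for miR-409a, -0.08 for miR-411, -0.04 for miR-541 and 0.02 for miR-379, with adjusted p values of 0.169 or more from limma. Both arms were on the lower side in 16 hairpins and on the higher side in 5 (miR-299a, miR-299b, miR-300, miR-409a and miR-541), and in 8, miR-134 among them, the arms had opposite signs.

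**Figure D4:**
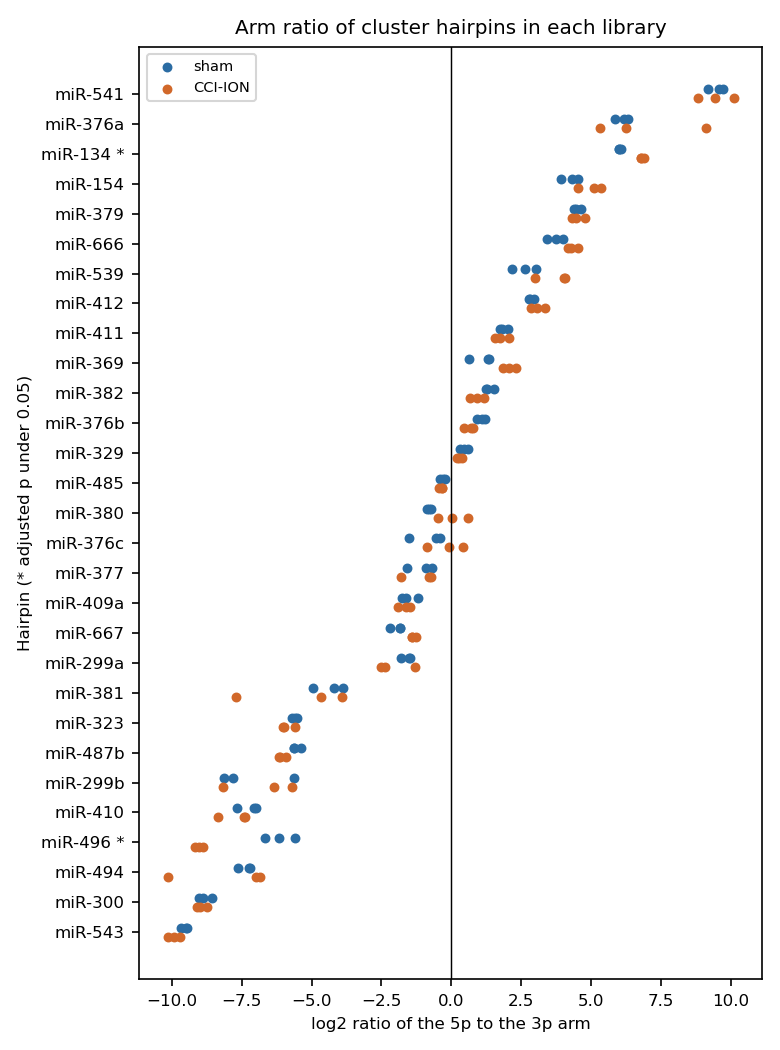
Log2 of the 5p product over the 3p product (horizontal axis, 1 normalized count added to each) in the 3 sham (blue) and 3 CCI-ION (orange) libraries for the 29 cluster hairpins with both arms, ordered by their mean. The ratios span from -9.74 for miR-543 to 9.48 for miR-541 on average, and only miR-134 and miR-496 (asterisks) passed the threshold.

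The largest differences in the upward direction, among members with a mean of at least 10, were those of the 3p products of miR-299. miR-299a-3p was at 262, 221 and 245 normalized counts in sham and 527, 287 and 564 in CCI-ION libraries. The groups did not overlap, but CCI-ION replicate 2 lay much nearer to the sham libraries than to the other CCI-ION libraries. The log2 difference was 0.86 (SE 0.28, adjusted p = 0.109 from limma), and without CCI-ION replicate 2 it was 1.17 with an adjusted p of 0.0182 from limma. miR-299b-3p, whose listed sequence is contained in that of miR-299a-3p, had nearly the same values, with 277, 223 and 255 in sham and 528, 289 and 555 in CCI-ION libraries (0.81, SE 0.28, adjusted p = 0.123 from limma). The pair therefore cannot be counted as separate measurements.

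miR-380-5p was the third of this group, at 1160.0, 1196 and 1333 normalized counts in sham and 2140.0, 1691 and 1508 in CCI-ION libraries. The groups did not overlap (log2 difference 0.52, SE 0.17, adjusted p = 0.106 from limma). Its partner miR-380-3p overlapped between groups, since CCI-ION replicates 1 and 3, at 2087 and 2082, lay inside the sham range of 2040.0 to 2182. CCI-ION replicate 2 at 1123 stood below the other 5 libraries.

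The largest difference downward among members with a mean of at least 10 was that of miR-539-3p. It was at 373, 219 and 257 normalized counts in sham and 163, 79.1 and 57.1 in CCI-ION libraries, without overlap but with a wide spread in both groups. Its log2 difference of -1.60 (SE 0.43, interval -2.67 to -0.53) had an adjusted p of 0.0828 from limma. Without CCI-ION replicate 1 it was -2.02 with an adjusted p of 0.0392 from limma. miR-381-3p, which shares the seed AUACAAG with it and has been linked to dendrite growth together with miR-134 and miR-329, was at 143, 149.7 and 158 in sham and 235, 179 and 208 in CCI-ION libraries. The groups did not overlap, and the log2 difference of 0.45 (SE 0.14, adjusted p = 0.102 from limma) had the opposite sign to that of miR-539-3p.

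The other members best studied in neurons did not pass the threshold. miR-485-5p, which targets the synaptic vesicle protein SV2A, was at 5327, 5008 and 5709 normalized counts in sham and 4161, 4486 and 3774 in CCI-ION libraries, without overlap (log2 difference -0.37, SE 0.12, adjusted p = 0.107 from limma). miR-329-3p was at 4962, 5388 and 5708 in sham and 5438, 5104 and 4129.5 in CCI-ION libraries, with overlap (-0.14, SE 0.15), and it was above 0 with library totals. miR-410-3p, the last hairpin of the transcript, was at 3029, 3887 and 3613 in sham and 4029.6, 3983 and 4934 in CCI-ION libraries (0.30, SE 0.16, adjusted p = 0.226 from limma). Its groups did not overlap, though sham replicate 2 lay close below CCI-ION replicate 2.

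The remaining members with an unadjusted p under 0.05 were on the lower side in CCI-ION rats. miR-154-3p had a log2 difference of -0.74, miR-667-3p of -0.59, miR-376b-5p, miR-539-5p and miR-668 of -0.53, -0.53 and -0.52, miR-666-3p of -0.46 and miR-329-5p of -0.31. Their adjusted p values ran from 0.0916 for miR-667-3p to 0.146 for miR-329-5p. The precursors of the miR-376 family are known substrates of A-to-I editing. Of that family, miR-376a-3p, miR-376c-3p and miR-376c-5p had means of 8.76, 31.1 and 18.5 normalized counts, and their values overlapped between groups.

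The differences were only weakly related to the position along the cluster. Between the order of a hairpin and its log2 difference, Spearman's rho was -0.13 over the 29 5p and -0.20 over the 30 3p products. These share the same libraries and, apart from the products of Mir299b, a transcript. With the GC content of the mature sequence rho was 0.16 over the 61 members and 0.14 over 507 miRNAs tested with a sequence. The neighbours miR-134 and miR-382 lay close together in the order, yet their 5p products differed in sign, at 0.44 and -0.41.

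**Figure D5:**
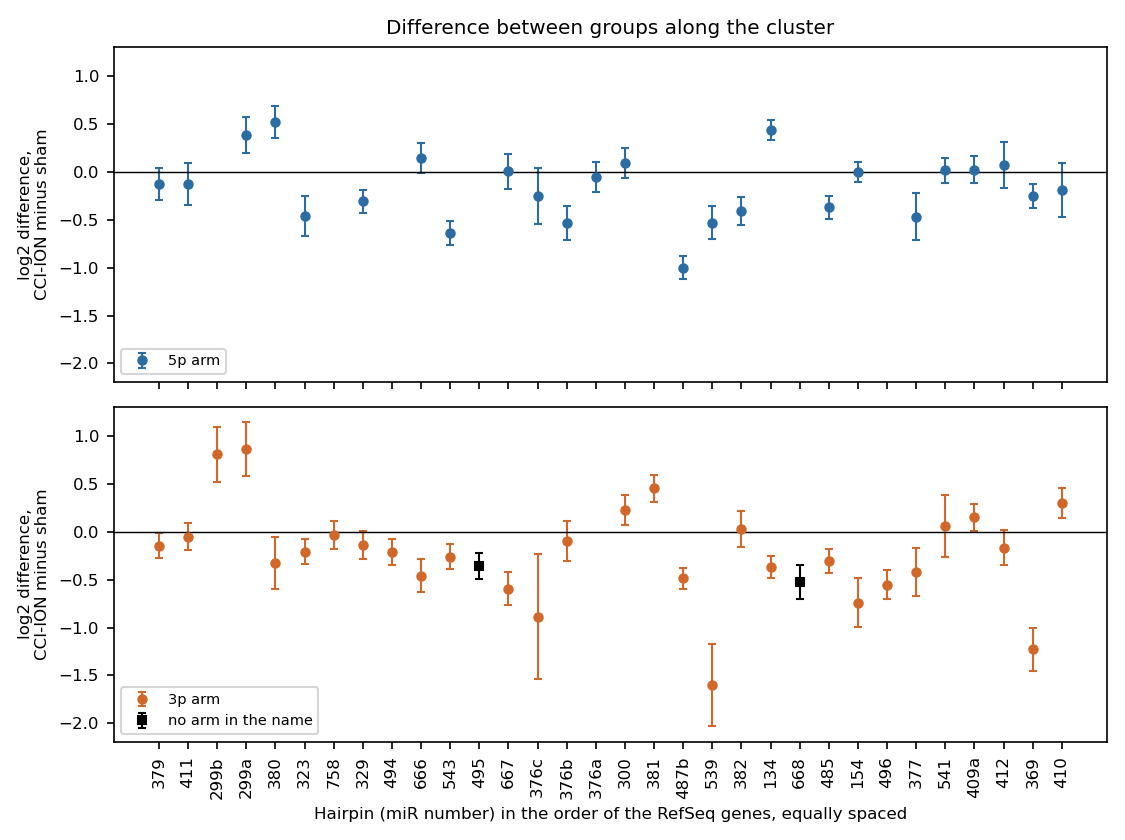
Log2 difference (CCI-ION minus sham, vertical axis, with SE) for the 56 cluster miRNAs with a mean of at least 10, with hairpins in their RefSeq order from miR-379 to miR-410 at equal spacing (horizontal axis). The upper panel holds the 5p products and the lower panel the 3p products and the 2 without an arm in the name, and the 3p product of miR-539 at -1.60 and that of miR-299a at 0.86 mark the ends of the range.

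Elsewhere in the locus, the miRNAs antisense to Rtl1, which come from a separate stretch of the maternal transcripts upstream of Mirg and direct cleavage of the paternal Rtl1 mRNA, had 9 products tested. Their median log2 difference was -0.07, and 1 passed, miR-433-5p, which was lower (-0.93, adjusted p = 0.0334 from limma). Before adjustment 2 were lower and 1 higher at a p under 0.05. The latter was miR-127-5p, at 0.95 (adjusted p = 0.0554 from limma), with every CCI-ION library above every sham library. Of 13 other products of the locus outside both lists, 0 passed, with a median of 0.02 (limma), and 4 had an unadjusted p under 0.05, 2 in each direction. Over all miRNAs tested, 6.85% passed in limma and 33% had an unadjusted p under 0.05, 17.5% lower and 15.5% higher. Whether the 61 members differ from the other products of the locus was not tested.

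Some markers of the cell types that the dissected tissue can hold differed between the groups, and their part in the values above was not tested. Of 6 miRNAs typical of neurons, all detected, 1 passed as lower (miR-124-3p) in limma. At an unadjusted p under 0.05, 3 were lower and 1 higher (miR-129-5p, at 0.45). The median log2 difference was -0.61, with summed normalized counts of 2041436 to 2229136 in sham and 1616061 to 2011890 in CCI-ION libraries. Most of these sums was miR-9a-5p, with means of 1392227 in sham and 1247795 in CCI-ION libraries (log2 difference -0.17). Of 3 typical of oligodendrocytes 1 passed as lower and 2 were lower before adjustment (median -1.27, sums 9165 to 14031 against 7133 to 7612). Of 4 typical of endothelium and vessel wall 2 passed as higher and 3 were higher before adjustment (median 0.65, sums 80232 to 105934 against 151501 to 165454). The remaining vessel marker, miR-126a-5p, was on the lower side (-0.91), opposite to miR-126a-3p of the same hairpin (0.44). Of the miRNAs typical of erythrocytes (2 of 3 listed), pituitary and epithelium (6), choroid plexus and ependyma (5) and immune cells (4), 0 passed in limma, with medians of 0.49, 0.72, 0.23 and 0.01. Before adjustment, 1, 2, 1 and 1 of them were higher and 1 immune miRNA was lower at a p under 0.05. In the immune list, miR-223-3p was higher (0.95) and miR-150-5p, which held most of the sum, was lower (-0.45). Their summed normalized counts were 2831 to 3786 in sham and 2898 to 3653 in CCI-ION libraries for erythrocytes, 10541 to 15566 and 13061 to 30452 for pituitary and epithelium, 65993 to 90237 and 85001 to 108839 for choroid plexus and ependyma, and 2471 to 3097 and 1896 to 2333 for immune cells. No listed marker was at 0 in all libraries.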

How the data were processed

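miRNAs of the ARC were measured in 3 sham and 3 CCI-ION libraries, grouped by the sample labels. For every mature miRNA the authors deposited a signal value in each library, called a normalized count here. Per the labels, cutadapt 1.14, Bowtie 1.1.1 and build rn6 were used. The annotation, counting and handling of similar sequences are not given in the sources used here. Values up to 10000 were whole multiples of a step in each library, within 0.01 of a step, and the smallest was worth 5 steps. A step was taken as 1 read, so that values would be reads over a size factor, which is inferred and not stated.

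log2(normalized count + 1) was compared with limma 3.58.1 in R 4.3.3 (two-sided, no covariate, Benjamini-Hochberg adjustment, threshold 0.05) for miRNAs whose mean was 1 or more, and likewise the log2 ratio of 5p + 1 to 3p + 1 for hairpins with both arms. The fits were tested on simulated data. Standard errors come from these fits and intervals are 95%. Libraries of a group differed beyond sampling noise. With 3 libraries against 3 an exact permutation test cannot give a two-sided p below 0.1, so none is given.

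The cluster miRNAs and the lists were chosen with earlier results of these data known. Named with values in every library were members past the threshold, the 10 most abundant, the 3 largest rises and falls with a mean of at least 10, the other arm of hairpins with a member past the threshold, and 7 well studied in neurons. Others named were chosen after their values were seen. Alternatives were 3 other scalings, 2 other filters, a pseudocount of 0.1, an intensity trend, the replicate number as a block and each library left out. Another value for 0 was added after seeing the data.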

Additional observations from a re-analysis of the deposited data

How the results depend on the processing

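The number of members past the threshold was 4 as reported (of 38 miRNAs in all), 14 with upper-quartile factors (all lower, of 88 in all), 9 with an intensity trend (8 lower and 1 higher, of 88 in all) and 1 to 4 with a library left out (1 to 3 lower and 0 to 2 higher, of 7 to 42 in all). Library totals, totals without miR-7a-5p and a minimum mean of 10 each added 1 higher member, miR-134-5p. The median log2 difference moved from -0.21 to -0.011 with library totals and to -0.47 with upper-quartile factors, and was -0.29 to -0.15 with a library left out; the ratio of summed levels moved from 0.922 to 1.06 with library totals and was 0.888 to 0.958 with a library left out. These scalings also moved the median of all miRNAs. Hairpins past the threshold for the arm ratio numbered 2 as reported, 1 to 3 with a library left out and 1 with each 0 taken as 2.5 reads, chosen after seeing the data.

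With the replicate number as a block (replicate block), 1 member passed (1 lower, miR-496-5p, of 3 miRNAs in all) and 0 hairpins, with 18 members and 8 hairpins at an unadjusted p under 0.05 in limma. Deviations of libraries with the same number from their group means correlated at -0.03, 0.19 and -0.01. With group means of 3 libraries, these values cannot decide whether libraries of the same number shared a batch. The labels give only the number.

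Some small differences turned sign. With library totals these were 0.078 for miR-379-5p, 0.073 for miR-411-5p and 0.064 for miR-329-3p, and with upper-quartile factors -0.24 for miR-541-5p, -0.030 for miR-300-3p and -0.11 for miR-409a-3p. With a library left out, miR-541-5p ran from -0.065 to 0.094 and miR-411-5p from -0.36 to 0.026. The log2 differences in the arm ratio between groups then ran from -0.37 to 0.28 for miR-541 and -0.22 to 0.037 for miR-411. For miR-379 they ran from -0.12 to 0.13 and for miR-409a from -0.25 to 0.034. The cause was not tested.

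The 2 planned count tests were not run because the values are normalized. A minimum mean of 10 gives no value for miR-496-5p. Members under about 10 reads cannot be compared at this depth.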
